A study of Homo sapiens with 2 samples.

Results

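The genes described here are the SLC25 family, which encodes the carrier proteins of the mitochondrial inner membrane, in A427, an established line from a human lung carcinoma of the non-small cell kind, whose cells either float as spheres or adhere. Members were taken by symbol, as every entry that starts with SLC25A and a digit and has no hyphen, which gave 50 of the 23686 symbols measured. RNA libraries made with an mRNA kit were sequenced from floating, sphere-forming cells and from adherent cells, with 1 library for each growth form. Both groups are this 1 line, carry the genotype label WT, name no agent and grew in RPMI 1640 medium with fetal bovine serum, while CTNNB1-mutated cells are named in the title of the series, which looks for genes of stem cell properties. Neither growth form has a replicate, so the differences below have no replicate check and no p-value, and compare these 2 libraries.

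The mitochondrial inner membrane is closed to charged metabolites, and the SLC25 carriers are the gates by which nucleotides, phosphate, carboxylates, amino acids, cofactors and iron cross it. Each carrier is a small protein built of repeated, similar segments that alternates between a state open to the cytosol and a state open to the matrix, usually exchanging a solute against another. The ADP/ATP carriers export the ATP made by oxidative phosphorylation, the phosphate carrier feeds ATP synthase, and other members link the mitochondrion to lipid, amino acid, heme and nucleotide synthesis in the cytosol.

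The floating library held 27148842 gene-assigned reads and the adherent library 26384670. The keratin genes KRT8 and KRT18 and the epithelial adhesion gene EPCAM were between 327 and 615 TPM (transcripts per 1000000, a level per transcript length) in the libraries. KRT8 stood at 581 TPM in floating and 327 TPM in adherent cells. The lung adenocarcinoma markers NKX2-1 and NAPSA were at 2 TPM or below in both. The libraries are bulk RNA, so fewer cells with a transcript and less of it per cell cannot be told apart.

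A427 cells expressed most of the family, and a few carriers made up most of its transcripts. In both libraries 4 members exceeded 100 TPM: the ADP/ATP carriers SLC25A6 and SLC25A5, the phosphate carrier SLC25A3 and the glutathione carrier SLC25A39. Together they held 67.4% of the family's summed TPM in floating cells and 67.6% in adherent cells. The whole family summed to 2901 TPM in floating and 3022 TPM in adherent cells. A further 27 members in floating and 28 in adherent cells lay between 10 and 100 TPM, led in floating cells by the citrate carrier SLC25A1 and in adherent cells by SLC25A23, a calcium-regulated carrier of ATP-Mg against phosphate. There were 12 members under 1 TPM in floating and 10 in adherent cells.

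**Figure D1:**
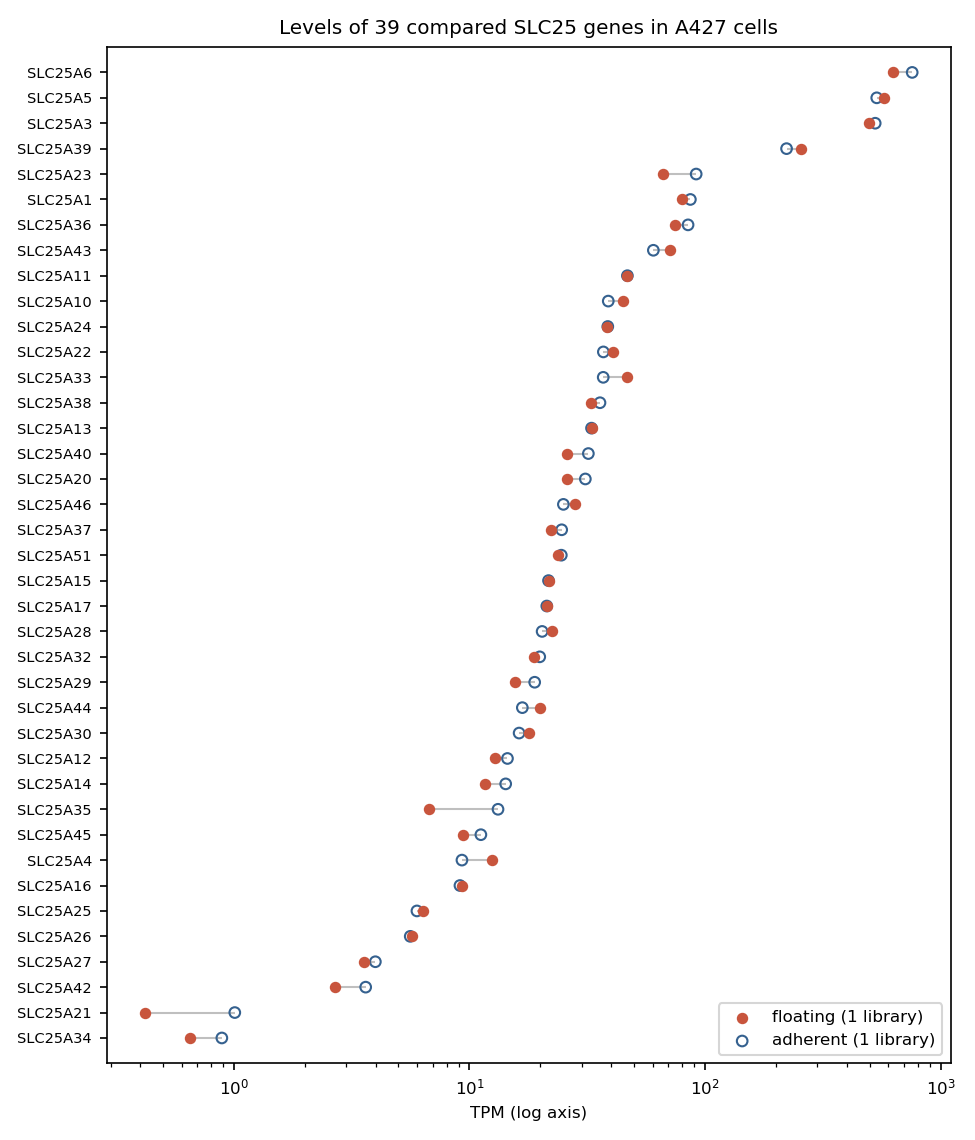
TPM of 39 of the 40 SLC25 genes compared (log axis), ordered by their level in adherent cells, with filled points for the floating and open circles for the adherent library. The order of the genes is nearly shared by the libraries, and the widest gaps between points are those of SLC25A21 and SLC25A35.

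Of the 50 members, 40 reached 1 CPM (reads per 1000000 on scaled library size, about 27.2 reads in the floating and 26.3 in the adherent library) in at least one library and were compared. Log2 ratios, floating over adherent, were computed from scaled read counts, with a 95% interval that covers counting error only. None of the 40 passed 2-fold in either direction with an interval that excludes no difference, where 1.28% of all 13131 tested genes passed as higher and 0.754% as lower. At 1.5-fold, 1 member was lower, SLC25A35, and none was higher, with 2.9% lower and 3.24% higher over all genes. At 1.2-fold, a threshold chosen after the values were seen, 4 members were higher and 3 lower, with 12.1% higher and 12.5% lower over all genes. By the counting interval alone, 10 of 40 members were higher (25% of them) and 9 lower (22.5%), which is close to the 25.5% higher and 25.6% lower of all genes. The median log2 ratio was 0.02 for the 40 members, -0.03 for the 181 tested genes of other SLC families and -0.005 for all tested genes. The middle of the members' values ran from -0.22 to 0.15 (quartiles), and that of all genes from -0.17 to 0.16. The family as a whole therefore stood where the other genes stood, and the account below is of its single members.

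**Figure D2:**
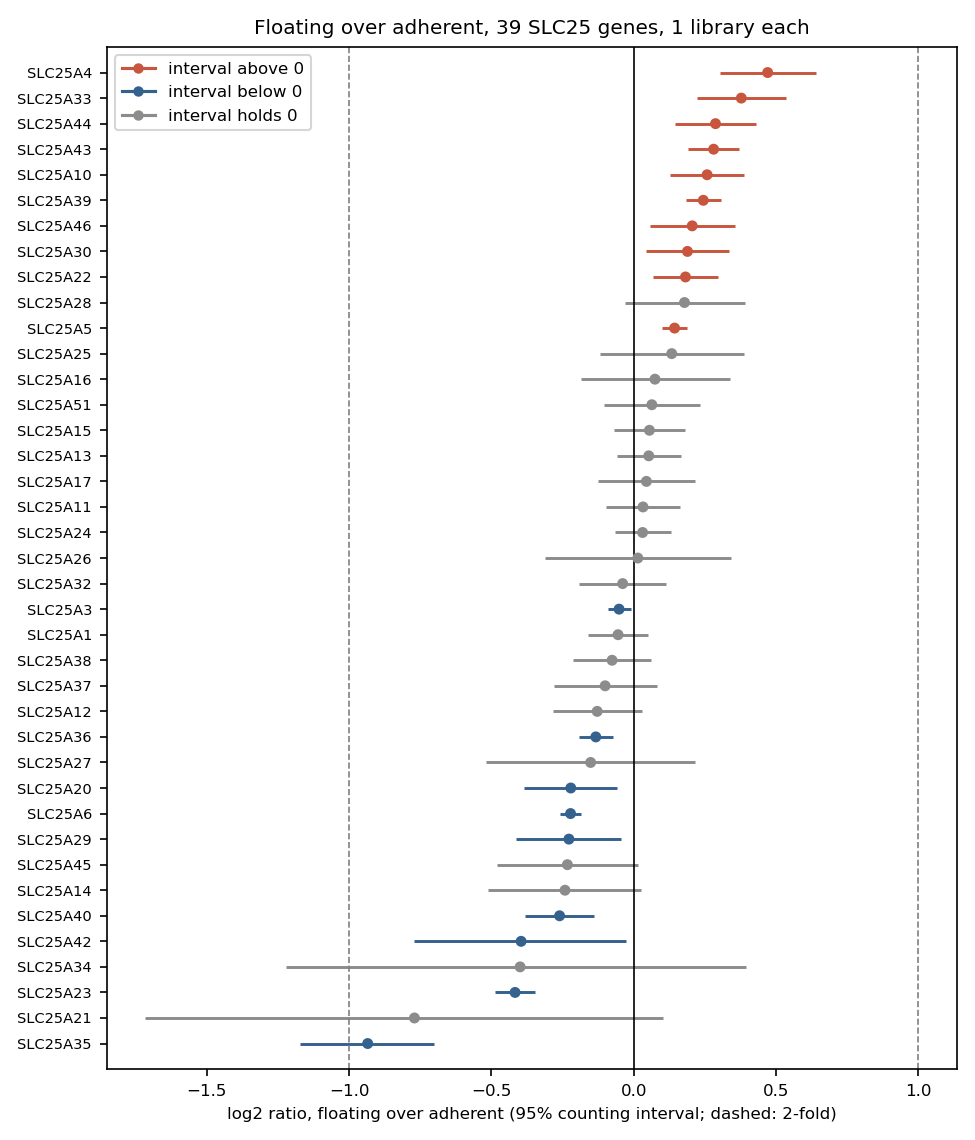
Log2 ratio of floating over adherent for 39 of the 40 SLC25 genes compared, with the 95% counting interval as a bar and 2-fold as dashed lines. The intervals of 10 genes lie above 0, those of 9 below 0 and those of 20 hold 0, and no point reaches a dashed line.

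The ADP/ATP carriers, which exchange cytosolic ADP for ATP made in the matrix, differed from each other in direction. SLC25A4, the isoform known from heart and skeletal muscle, had 707 reads and 12.5 TPM in floating cells, against 493 reads and 9.3 TPM in adherent cells, and was 1.39-fold higher (interval 1.23 to 1.56), the farthest of the higher members. SLC25A5, the isoform of proliferating cells, had 575 TPM in floating and 536 TPM in adherent cells and was 1.10-fold higher (1.07 to 1.14), a log2 ratio of 0.14 that was 0.09 once a trend over transcript length was removed. SLC25A6, the widely expressed isoform, had 631 TPM in floating and 758 TPM in adherent cells and was lower by a log2 ratio of -0.22 (-0.26 to -0.18). The antisense entry SLC25A5-AS1, which the symbol rule leaves out, had 66 reads in floating and 71 in adherent cells. Where strand was not used in counting, reads from any overlap with SLC25A5 could not be told apart. Both entries had whole-number estimates in both libraries. SLC25A5 held 47.2% of the group's TPM in floating and 41.1% in adherent cells, SLC25A6 held 51.8% and 58.2% in the same order of libraries, and SLC25A4 held about 1% in each. Taken against SLC25A6 in the same libraries, which removes the scaling, the ratio was 1.29-fold higher for SLC25A5 (1.24 to 1.34) and 1.62-fold higher for SLC25A4 (1.44 to 1.82). Summed over the group the libraries were close, with 20301 reads in floating and 20359 in adherent cells (log2 ratio -0.05, interval -0.08 to -0.03). SLC25A31, the isoform of germ cells, had 0 reads in each library, and with a limit of 3 reads its level could be as high as 0.11 CPM in floating and 0.114 CPM in adherent cells.

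The promoters of the 3 expressed ADP/ATP carrier genes are shown because these paralogs do one job and differed in direction. Each is the 300 bases from 250 before the gene's start to 50 after it, from RefSeq on build GRCh38.p14, which is not the build of the deposited counts, and is written 5′ to 3′ on the gene's strand. SLC25A4 lies at chr4:185143016-185143315 (plus strand), SLC25A5 at chrX:119468194-119468493 (plus strand) and SLC25A6 at chrX:1392064-1392363 (minus strand). Capitals mark TATAA where it begins 20 to 40 bases before the start on the gene's strand.
SLC25A4: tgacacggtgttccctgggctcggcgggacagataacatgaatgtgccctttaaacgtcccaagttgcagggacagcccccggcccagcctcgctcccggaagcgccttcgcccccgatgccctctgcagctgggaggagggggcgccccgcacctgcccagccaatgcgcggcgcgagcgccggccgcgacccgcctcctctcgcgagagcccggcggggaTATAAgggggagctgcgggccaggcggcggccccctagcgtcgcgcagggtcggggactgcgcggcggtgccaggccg
SLC25A5: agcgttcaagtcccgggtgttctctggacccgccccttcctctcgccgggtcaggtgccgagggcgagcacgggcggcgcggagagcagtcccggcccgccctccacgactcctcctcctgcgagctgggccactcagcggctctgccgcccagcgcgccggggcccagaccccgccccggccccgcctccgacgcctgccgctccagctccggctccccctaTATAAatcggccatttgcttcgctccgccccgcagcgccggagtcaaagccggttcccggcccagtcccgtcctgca
SLC25A6: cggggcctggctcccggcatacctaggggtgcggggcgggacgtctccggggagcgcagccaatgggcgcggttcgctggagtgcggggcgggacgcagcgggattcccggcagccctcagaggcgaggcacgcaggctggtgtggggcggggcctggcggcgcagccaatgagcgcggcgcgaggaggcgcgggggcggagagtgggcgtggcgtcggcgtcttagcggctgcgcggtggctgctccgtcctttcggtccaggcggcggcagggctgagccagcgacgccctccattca
TATAA stood in this window in SLC25A4 and SLC25A5, and in no other of the 40 member promoters found, so not in SLC25A6. SLC25A33, SLC25A43, SLC25A39, SLC25A44 and SLC25A10, also higher by interval, lacked it as well. Whether the motif goes with direction was not tested. Over all 27305 promoters of this length 4.22% held TATAA in this window, and of those of tested genes 2.62%. This motif was chosen after the sequences had been seen. The GC content was 73.3% for SLC25A4, 73.7% for SLC25A5 and 75.7% for SLC25A6.

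The phosphate carrier SLC25A3, which imports the phosphate that ATP synthase joins to ADP and also brings copper into the matrix, was nearly level. It had 9840 reads in floating and 9856 in adherent cells, at 495 and 528 TPM in that order, a 1.04-fold lower value with a narrow interval (1.01 to 1.07). Its log2 ratio of -0.05 was -0.10 with the length trend removed. Of 18 tested ATP synthase genes, 12 had intervals above 0 and 2 below, with a median log2 ratio of 0.14, where 25.5% of all tested genes had intervals above 0 and 25.6% below. ATP5I, a subunit of the membrane part, was at 0.36 on that scale (0.24 to 0.48), USMG5 at 0.32 (0.23 to 0.42) and ATP5E, whose estimate has decimals, at 0.28 (0.22 to 0.35). The length trend was not removed from the ATP synthase values, and the share over all genes was not matched for read depth.

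The ATP-Mg/phosphate carriers, which set the size of the matrix adenine nucleotide pool under control of cytosolic calcium, were lower through their main member. SLC25A23 had 2910 reads and 66.6 TPM in floating cells, against 3755 reads and 91.8 TPM in adherent cells, and was lower, at a log2 ratio of -0.42 (-0.49 to -0.35). SLC25A24 had 38.3 TPM in floating and 38.7 TPM in adherent cells, with an interval that held no difference, as had that of SLC25A25 at 6.37 and 5.99 TPM in the same order. The ratio of SLC25A24 to SLC25A23 was 1.36-fold higher in floating cells (1.26 to 1.48). SLC25A23 held 59.4% of the group's TPM in floating and 66.8% in adherent cells. SLC25A41, a relative known from testis, had 16 reads in floating and 17 in adherent cells and was not compared.

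The pyrimidine nucleotide carriers, which supply the matrix with the UTP and CTP needed for mitochondrial RNA and DNA, differed in direction as well. SLC25A33 had 784 reads and 46.7 TPM in floating cells, against 583 reads and 37.0 TPM in adherent cells, and was higher, at a log2 ratio of 0.38 (0.22 to 0.54). SLC25A36 had 4481 reads and 74.9 TPM in floating cells, against 4750 reads and 84.8 TPM in adherent cells, and was 1.10-fold lower (1.05 to 1.14). Per length, the pair summed to 121.6 TPM in floating and 121.8 TPM in adherent cells, while by reads, with 5265 in floating and 5333 in adherent cells, the sum was slightly lower (log2 ratio -0.07, -0.12 to -0.01). SLC25A33 held 38.4% of this sum in floating and 30.4% in adherent cells, and its ratio to SLC25A36 was 1.43-fold higher in floating cells (1.27 to 1.60).

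The promoters of this pair are shown beside their opposite directions, from the same table and build and over the same window. SLC25A33 lies at chr1:9539215-9539514 and SLC25A36 at chr3:140941586-140941885, both on the plus strand. Capitals mark the E-box CACGTG, bound by MYC and related factors, and the cyclic AMP response element TGACGTCA, bound by CREB and related factors, each of which reads the same on both strands.
SLC25A33: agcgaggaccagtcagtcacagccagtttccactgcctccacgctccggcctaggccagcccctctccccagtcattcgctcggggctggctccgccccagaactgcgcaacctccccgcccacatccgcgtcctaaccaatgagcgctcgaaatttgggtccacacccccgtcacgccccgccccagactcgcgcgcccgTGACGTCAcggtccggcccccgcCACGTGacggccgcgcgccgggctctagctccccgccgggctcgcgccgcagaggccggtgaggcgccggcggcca
SLC25A36: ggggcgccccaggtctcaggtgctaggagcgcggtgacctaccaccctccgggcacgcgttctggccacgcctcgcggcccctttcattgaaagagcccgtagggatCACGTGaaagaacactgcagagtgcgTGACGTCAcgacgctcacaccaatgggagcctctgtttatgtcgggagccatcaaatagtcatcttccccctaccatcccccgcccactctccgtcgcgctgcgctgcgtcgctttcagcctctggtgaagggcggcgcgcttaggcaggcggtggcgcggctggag
Both promoters held both motifs, with the E-box from base 225 of SLC25A33 and base 108 of SLC25A36, and the response element from base 202 and base 134. They were the only 2 of 40 member promoters with both, which 0.19% of all promoters had. Of promoters of tested genes, 2 of 34 for members (5.88%) and 0.386% of all had both. The pair of motifs was picked after these sequences had been seen, so its rarity elsewhere is no independent evidence. Among tested genes with a promoter in the table, the E-box was in 6 of 34 members (17.6%) and in 10.2% of all. The response element, chosen after the sequences had been seen, was in 3 of these members (8.82%) and in 3.25% of all tested genes. The motif of the nuclear respiratory factor NRF1, searched on both strands, was in 3 (8.82%) and in 11.9%, and TGATGNAA, found at ATF4 targets and searched on both strands, in 1 (2.94%), SLC25A11, and in 1.55%. A motif match is a description of these letters, not a site of binding.

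**Figure D3:**
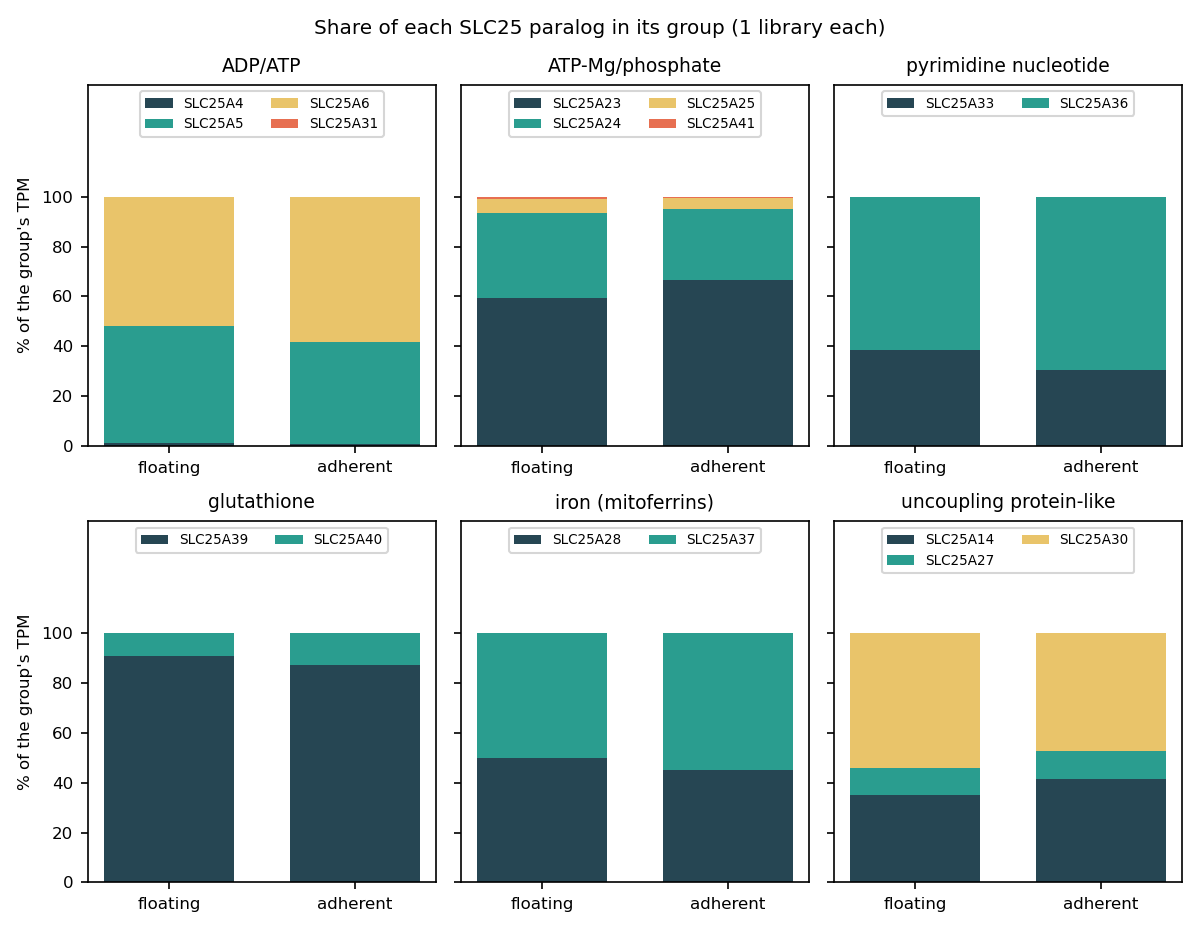
Percent of each paralog group's summed TPM held by each member, floating at left and adherent at right, for 6 groups of SLC25 genes. SLC25A5, SLC25A24, SLC25A33, SLC25A39, SLC25A28 and SLC25A30 hold a larger share in floating than in adherent cells, and SLC25A6, SLC25A23, SLC25A36, SLC25A40, SLC25A37 and SLC25A14 a smaller one.

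The glutathione carriers, which bring this antioxidant from the cytosol into the matrix, split as well. SLC25A39 had 4736 reads and 255 TPM in floating cells, against 3864 reads and 222 TPM in adherent cells, and was 1.18-fold higher (1.14 to 1.24). Its relative SLC25A40 had 25.89 TPM in floating and 31.99 TPM in adherent cells and was lower, at a log2 ratio of -0.26 (-0.38 to -0.14). The ratio of SLC25A39 to SLC25A40 was 1.42-fold higher in floating cells (1.29 to 1.56). Of 6 genes of glutathione synthesis and use, 2 had intervals above 0 and 1 below, near the 25.5% above and 25.6% below over all tested genes. The subunit GCLM of the rate-limiting synthetic enzyme was at a log2 ratio of 0.19 (0.05 to 0.34), and the glutathione peroxidase GPX1 at -0.73 (-0.79 to -0.66), with 315 TPM in floating and 537 TPM in adherent cells.

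The mitoferrins, which import iron for heme and iron-sulfur clusters, each had an interval that held no difference. SLC25A28 had 22.4 TPM in floating and 20.4 TPM in adherent cells, and SLC25A37, the mitoferrin of developing red cells, had 22.3 and 24.6 TPM in the same order. The ratio of SLC25A28 to SLC25A37 was 1.21-fold higher in floating cells, with an interval that barely excluded no difference (1.004 to 1.47). SLC25A38, which imports glycine for heme synthesis, had 33.0 TPM in floating and 35.8 TPM in adherent cells, and its interval held no difference. Of 10 genes of heme and iron-sulfur cluster synthesis, 6 had intervals above 0 and 1 below, beside 25.5% and 25.6% of all tested genes. ISCU, the scaffold of cluster assembly, was at a log2 ratio of 0.47 (0.36 to 0.57), ALAS1, the first enzyme of heme synthesis, at 0.34 (0.26 to 0.41), and CPOX, a later enzyme of that pathway, at -0.39 (-0.42 to -0.36).

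Of the 4 tested carriers of citrate, dicarboxylates and oxodicarboxylates, SLC25A10 had an interval above 0 and none had one below. The citrate carrier SLC25A1, which exports citrate for fatty acid and sterol synthesis, had 80.3 TPM in floating and 86.7 TPM in adherent cells, and its interval held no difference (log2 ratio -0.05, -0.16 to 0.05). Of 8 genes of citrate export and use, 2 had intervals above 0 (25%) and 3 below (37.5%), near the 25.5% and 25.6% of all tested genes. Those below, which act in fatty acid synthesis from citrate, had log2 ratios of -0.24 for ACLY (-0.27 to -0.21), -0.19 for ACACA (-0.24 to -0.15) and -0.40 for FASN (-0.42 to -0.37). SLC25A10, which exchanges malate or succinate for phosphate, had 1080 reads and 45.1 TPM in floating cells, against 873 reads and 38.9 TPM in adherent cells, and was higher, at a log2 ratio of 0.26 (0.13 to 0.39). The oxoglutarate/malate carrier SLC25A11 had 46.5 TPM in floating and 46.9 TPM in adherent cells, an interval that held no difference. SLC25A21, which imports oxoadipate from lysine breakdown, had 18 reads in floating and 30 in adherent cells, and its interval was wide (log2 ratio -0.77, -1.72 to 0.10). It reached 1 CPM in the adherent library alone, as did SLC25A34. Its TPM differed more, at 0.42 in floating and 1.01 in adherent cells, since the reads per TPM differed 1.35-fold between the libraries, relative to that of other genes. That ratio lay between 0.961 and 1.05 for the other members tested.

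Carriers of amino acids included both directions. SLC25A12 (aralar) and SLC25A13 (citrin), the aspartate/glutamate carriers of the malate-aspartate shuttle, had intervals that held no difference, with log2 ratios of -0.13 (-0.28 to 0.03) and 0.05 (-0.06 to 0.17). SLC25A13 was the main one, at 33.2 TPM in floating and 33.0 TPM in adherent cells. The 4 enzymes of that shuttle had intervals above 0, as had 25.5% of all tested genes, with GOT1, the cytosolic transaminase, at 120 TPM in floating and 77.2 TPM in adherent cells (log2 ratio 0.68, 0.60 to 0.77), GOT2 at a log2 ratio of 0.20 (0.14 to 0.27), MDH2 at 0.25 (0.20 to 0.30) and MDH1 at 0.11 (0.06 to 0.16). The glutamate carrier SLC25A22 had 40.9 TPM in floating and 37.0 TPM in adherent cells and was 1.13-fold higher (1.05 to 1.23), while its paralog SLC25A18 had 0 reads in both libraries. SLC25A44, which imports branched-chain amino acids, had 913 reads and 19.9 TPM in floating cells, against 723 reads and 16.8 TPM in adherent cells, and was 1.22-fold higher (1.11 to 1.35). SLC25A29, a carrier of basic amino acids, had 15.7 TPM in floating and 18.9 TPM in adherent cells and was 1.17-fold lower (1.03 to 1.33). The ornithine carrier SLC25A15 had 21.8 TPM in floating and 21.7 TPM in adherent cells, and its near copy SLC25A2, whose coding sequence is 87.6% identical, had 0 reads in floating and 1 in adherent cells.

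Of the 7 tested cofactor carriers, 6 had intervals that held no difference and 1, SLC25A42, was lower. By the same rule 25.5% of all tested genes were higher and 25.6% lower. SLC25A51, which imports NAD, had 23.7 TPM in floating and 24.6 TPM in adherent cells. SLC25A52, whose coding sequence is 97.6% identical to that of SLC25A51, was estimated at 0 reads in floating and 1.81 in adherent cells. Reads of this pair can be shared between its genes, and its estimates carry decimals. The carriers of S-adenosylmethionine (SLC25A26) and of folate or FAD (SLC25A32), the peroxisomal cofactor carrier SLC25A17 and SLC25A16, to which coenzyme A transport has been ascribed, had log2 ratios between -0.04 and 0.07, each with an interval that held 0. SLC25A42, which carries coenzyme A, had 110 reads and 2.68 TPM in floating cells, against 140 reads and 3.63 TPM in adherent cells, and was 1.32-fold lower (1.02 to 1.71).

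SLC25A20, which brings acylcarnitines into the matrix for beta-oxidation, was lower. It had 584 reads and 25.9 TPM in floating cells, against 658 reads and 31.1 TPM in adherent cells, a 1.17-fold difference (1.04 to 1.31). Of 8 tested genes of the carnitine shuttle and beta-oxidation, 3 had intervals below 0 (37.5%, beside 25.6% of all tested genes) and none above, with a median log2 ratio of -0.07. CPT1A, the rate-limiting enzyme that makes acylcarnitines at the outer membrane, was at -0.38 (-0.42 to -0.33), with 129 TPM in floating and 174 TPM in adherent cells.

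Members related to uncoupling proteins differed little. SLC25A30 had 17.97 TPM in floating and 16.26 TPM in adherent cells and was 1.14-fold higher (1.03 to 1.26). SLC25A14 had 11.7 TPM in floating and 14.3 TPM in adherent cells (log2 ratio -0.24, -0.51 to 0.03), and SLC25A27 had 3.58 and 3.99 TPM in the same order, both with intervals that held no difference. SLC25A46, which sits in the outer membrane and acts on mitochondrial shape, had 28.0 TPM in floating and 25.1 TPM in adherent cells and was 1.15-fold higher (1.04 to 1.28).

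Among members with no settled substrate was the carrier farthest from no difference. SLC25A35 had 232 reads and 6.71 TPM in floating cells, against 429 reads and 13.2 TPM in adherent cells, and was 1.91-fold lower (1.63 to 2.25). Its relative SLC25A34 was near the 1 CPM filter, with 25 reads in floating and 32 in adherent cells. SLC25A43 had 2231 reads and 71.2 TPM in floating cells, against 1775 reads and 60.4 TPM in adherent cells, and was 1.22-fold higher (1.14 to 1.29). SLC25A45 had 9.39 TPM in floating and 11.2 TPM in adherent cells, and its interval held no difference (log2 ratio -0.23, -0.48 to 0.01).

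The 10 members that were not compared had at most 17 reads in either library. SLC25A18, SLC25A31 and the pseudogene SLC25A3P1 had 0 reads in both. SLC25A47, a carrier known from liver, had 1 read in floating and 0 in adherent cells, and SLC25A48 had 2 and 0 reads in the same order. SLC25A53 had 10 reads in floating and 11 in adherent cells, and the pseudogene SLC25A51P1 was estimated at 2.25 and 1.42 reads in that order.

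Across the family, 10 groups of paralogs had at least 2 tested members, which gave 16 pairs. For 11 pairs in 8 groups, the ratio of one paralog to the other differed between the libraries with an interval (Wald, on the log odds of the reads) that excluded no difference. The intervals were not adjusted for the number of pairs, several pairs share a member, and no share over other pairs of genes was computed. At this depth 25.5% of all single genes were higher by interval and 25.6% lower, and nothing particular to paralogs is read from the count. Coding sequences of paralogs both tested were between 55.2% and 78.7% identical in GENCODE release 29. Of the 40 compared members, 39 had whole-number estimates.

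Of the 10 tested genes of the pathway that brings carriers to the inner membrane, 5 had intervals above 0 and 5 had intervals that held 0, with a median log2 ratio of 0.18. Over all tested genes 25.5% were higher by interval. TIMM22, the channel that inserts carriers, had 20.1 TPM in floating and 15.6 TPM in adherent cells (log2 ratio 0.41, 0.19 to 0.64). The small chaperones of the intermembrane space TIMM8B and TIMM13 were at 0.40 (0.19 to 0.62) and 0.35 (0.20 to 0.51). Of the other TIMM genes of this list, TIMM10 was at 0.30 (0.12 to 0.47). The intervals of TIMM9 at 0.04 (-0.11 to 0.20), TIMM10B at 0.12 and TIMM8A at 0.17 held 0. The carrier receptor TOMM70A was at 0.04 (-0.02 to 0.09). The porins VDAC1, VDAC2 and VDAC3, through which metabolites cross the outer membrane, were at 0.21, 0.19 and 0.10, each with an interval above 0. Of 14 other transporters of the inner membrane, 5 had intervals above 0 and none below. They included SFXN4 at 0.33 (0.17 to 0.48), SFXN2 at 0.37 (0.14 to 0.60) and the calcium exchanger LETM1 at 0.20 (0.13 to 0.28). Among enzymes of one-carbon, proline and glutamate metabolism 6 of 14 had intervals above 0 and 2 below, with MTHFD1L at 0.48 (0.37 to 0.58), MTHFD2 at 0.33 (0.29 to 0.37) and ASNS, a cytosolic enzyme and ATF4 target, at 0.40 (0.34 to 0.45). These counts stand beside 25.5% higher and 25.6% lower over all genes, a share not matched for read depth, and no test of a list was made. Genes with many reads, such as the porins, have narrower intervals and pass more easily. The length trend was not removed from the values of these or the other lists.

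**Figure D4:**
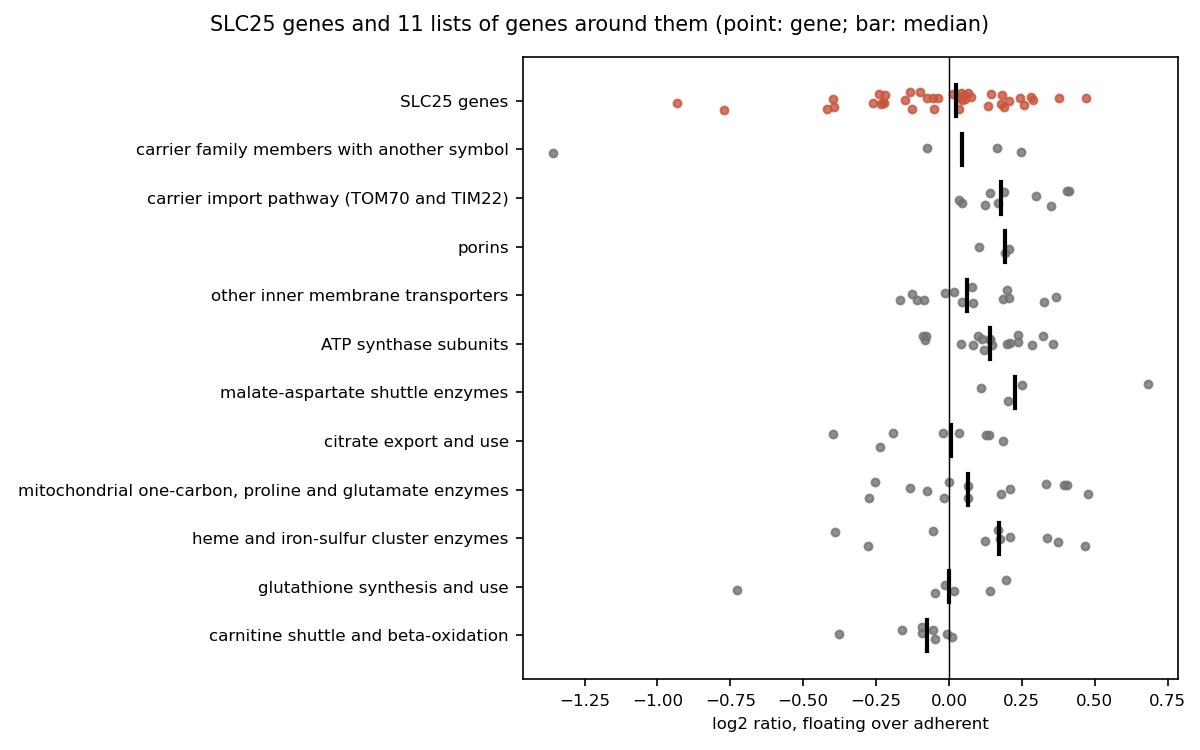
Log2 ratio of floating over adherent for each tested gene of the SLC25 family (top row) and of 11 lists of genes around it, with a bar at each median. The medians, without removal of the length trend, are 0.02 for SLC25 genes, 0.18 for the carrier import pathway, 0.19 for porins, 0.14 for ATP synthase and -0.07 for the carnitine shuttle and beta-oxidation.

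Carrier family genes that bear another name were read beside the members. UCP2, an uncoupling protein relative that exports carboxylates, had 54.8 TPM in floating and 50.3 TPM in adherent cells (log2 ratio 0.17, 0.04 to 0.30). UCP3, known from muscle, had 11 reads in floating and 28 in adherent cells at a log2 ratio of -1.36 (-2.55 to -0.35). It reached 1 CPM through the adherent library alone, so no call is read from its ratio. MTCH2, an outer membrane protein of the family that inserts other proteins, was at 0.25 (0.17 to 0.32), and its relative MTCH1 at -0.07 (-0.14 to -0.01). UCP1, of brown fat, had 0 reads in both libraries.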

How the data were processed

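RNA of A427 cells was sequenced in 1 floating and 1 adherent library. The labels' protocols name the KAPA mRNA HyperPrep Kit. Per the submitters' processing notes, FastQC 0.11.1, STAR 2.5.3a and RSEM 1.3.3 were used with build hg19. Annotation, settings and strand were not given in the sources used here. Deposited by the authors were estimated counts per gene, not normalized, and TPM, which the authors scaled per transcript length and library. 

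Estimated counts were rounded and scaled by TMM in edgeR 4.0.16 (R 4.3.3), with 0.5 added for ratios. Intervals are exact Clopper-Pearson, conditional on the summed reads. Without molecular identifiers, reads need not be independent molecules, and only counting error enters these intervals and limits. With 1 library per group no count test was run. The calculation was tested on simulated data. Coding sequences came from GENCODE release 29, promoters from RefSeq (40 of 50 members found). Members and lists were chosen with earlier results of these data known. Fuller values were given for the 6 members at each end by interval bound, the 5 of highest TPM, paralogs, and up to 3 genes per further list. 1 compared member enters the counts and medians but is not reported here by name. MDH1, MTCH1, TIMM8A, TIMM9, TIMM10, TIMM10B, TOMM70A, UCP1 and the epithelial and lung markers were named after their values were seen. Alternatives tried were deposited TPM, scaling by the upper quartile, by library totals or by size factors of DESeq2 1.42.0, a prior count of 5, other filters and folds, and removal of a trend over length. Python 3.11.15, scipy 1.17.1 and biopython 1.88 were used.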

Additional observations from a re-analysis of the deposited data

How the results depend on the processing

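No paired analysis was possible because each growth form has 1 library. At 2-fold, 0 members were higher and 0 lower under each scaling, prior count, filter and 4-fold threshold tried, and the deposited TPM put 1 member past 2-fold as lower, SLC25A21, at 0.42 TPM in floating and 1.01 TPM in adherent cells, a gene that passed the filter through the adherent library alone. With 1.5-fold 1 member was lower, beside 2.9% of all tested genes. With 1.2-fold, added after the data were seen, 4 members were higher and 3 lower, beside 12.1% and 12.5% of all tested genes. The median log2 ratio of the members lay on either side of 0, from -0.04 (no filter; the mean over members also gave -0.04) to 0.03 (at least 5 CPM), with -0.03 on deposited TPM. The median over all genes moved too, at -0.05 with no filter, -0.003 at 5 CPM and -0.05 on deposited TPM, and their mean was 0.003. By the counting interval alone, 10 members were higher under every scaling, and 9 to 11 were lower. SLC25A45 joined with the upper quartile, and SLC25A1 and SLC25A14 with the length trend removed. In the main setting 25.5% of all tested genes were higher by interval and 25.6% lower, close to the members' shares. Shares of all genes under the other scalings are not given here. No member with an interval apart from 0 changed sign. With the length trend removed, the log2 ratio was 0.09 for SLC25A5, against 0.14, -0.10 for SLC25A3, against -0.05, and -0.27 for SLC25A6, against -0.22. On shares of reads in place of TPM, the difference of floating minus adherent was -3.96 percentage points for SLC25A36, against -8.01 by TPM, and 5.69 for SLC25A39, against 3.40 by TPM, in the same directions, since reads are not divided by length. Depth limits SLC25A21, SLC25A34 and the 10 members not compared.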
